A study of Mus musculus with 6 samples.

Results

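The microRNAs of the miR-99, miR-100 and miR-125 families were followed in small RNA libraries from whole mouse brain. The families were taken as every listed mature miRNA whose name begins with miR-99a, miR-99b, miR-125a or miR-125b, or carries the number 100, whichever arm of the hairpin it comes from. The rule found 11 of the 1055 mature miRNAs listed, and 10 of these 11 reached 100 reads in each of the 6 libraries. The exception was miR-100*, the passenger strand of miR-100. The rule used names and no read numbers.

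The study compared 3 wild-type libraries and 3 Adar2-/- libraries, each from the whole brain of female mice of strain 129SV. The animals were siblings aged 5.5 months from crosses of heterozygous parents. Adar2 (also called Adarb1) encodes an adenosine deaminase that converts adenosine to inosine in double-stranded RNA, and miRNA hairpins are among its substrates. Mice of both genotypes were homozygous for a pre-edited Gria2 allele (Gria2 R/R), which keeps Adar2-/- animals alive. The wild type here is therefore wild type at Adar2 and not at Gria2. Each library was sequenced on a lane of its own, so a lane and a brain cannot be told apart. The libraries held between 12449633 and 23935544 reads mapped to mature miRNAs, the smallest being wild-type replicate 1, and the 11 miRNAs took 2.96% to 3.65% of them. Levels are given as RPM, reads per 1000000 reads mapped to mature miRNAs in the same library. Adar2 mRNA was not measured here, so the reads give no check of the genotype labels. None of the 9 sets of marker miRNAs for cell types of the brain and adjoining tissues separated the genotypes by its summed level. Single libraries stood apart, however. The summed level of the sensory organ and pineal miRNAs was 19158 RPM in Adar2-/- replicate 3 and 89664 RPM or more elsewhere. That of the epithelium miRNAs was 738 RPM in Adar2-/- replicate 3 and 4783 RPM or more in the other libraries. That of the pituitary miRNAs was 7459 RPM in wild-type replicate 1 and 4714 RPM or less in the others. The neuron set ranged from 154968 to 184609 RPM in wild type and from 148665 to 163998 RPM in Adar2-/-. A sum can hide members that change in opposite directions. Among single miRNAs, miR-375 had the lowest log2 fold change of the 399 tested, at -4.09 (SE 1.32, Adar2-/- against wild type). Its adjusted p was 0.988 by the edgeR test used below. The part of cell composition in the results was not tested. In a whole brain, fewer cells of a type and less miRNA per cell cannot be told apart.

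A miRNA hairpin is cut into a duplex of 2 short strands, one of which (the guide) is usually loaded into an Argonaute protein, while the other (the star or passenger strand) is mostly lost. The loaded strand finds messenger RNAs mainly through its seed, bases 2 to 8. Several mammalian miRNA clusters place a miR-99 or miR-100 hairpin, a let-7 hairpin and a miR-125 hairpin one after another on the same strand, an arrangement descended from an ancient animal cluster. miR-99 and miR-100 are known as repressors of mTOR, a kinase of cell growth. miR-125 is the vertebrate relative of the worm timing miRNA lin-4, and miR-125b is among the abundant miRNAs of nervous tissue.

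The mature sequences show which of these miRNAs share a seed and how closely they resemble each other. They were taken from RefSeq (build GRCm38.p6), in which all 11 had an entry, and are written 5′ to 3′ with the seed in capitals. The guide strands come first.

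miR-99a: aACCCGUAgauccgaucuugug
miR-100: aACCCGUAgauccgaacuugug
miR-99b: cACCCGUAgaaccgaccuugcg
miR-125a-5p: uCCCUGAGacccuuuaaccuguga
miR-125b-5p: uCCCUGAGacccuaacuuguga

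The strands from the opposite arms of the same hairpins are as follows.

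miR-99a*: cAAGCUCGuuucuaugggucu
miR-99b*: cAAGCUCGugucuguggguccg
miR-100*: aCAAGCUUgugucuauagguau
miR-125a-3p: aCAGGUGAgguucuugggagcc
miR-125b-1-3p: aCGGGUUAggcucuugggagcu
miR-125b-2-3p: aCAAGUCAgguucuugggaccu

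miR-99a, miR-99b and miR-100 shared 1 seed, which no other of the 1679 mature mouse miRNAs in the RefSeq table carried. Counting positions from 1 at the 5′ end, miR-100 and miR-99a differed by a single substitution, A16U. miR-99b differed from miR-99a by A1C U11A U16C U21C when written from miR-99a to miR-99b. miR-125a-5p and miR-125b-5p shared the other guide seed with 3 further mature miRNAs, among them miR-351-5p. miR-125a-5p has 24 bases and miR-125b-5p has 22. Compared base by base from the 5′ end without gaps, these 2 strands differed at 7 of the 22 positions compared. In such a comparison an insertion shifts all later bases, so the 7 are not a count of separate changes. miR-99a* and miR-99b* shared a seed too, and differed by U10G A14G U21C from miR-99a* to miR-99b*. The remaining 4 opposite-arm strands each had a seed of their own. Reads had been assigned at 90% identity, which leaves room for 2 substitutions. Over whole strands without gaps, miR-99a and miR-100 were the only pair of mature miRNAs within that distance that involved one of the 11. Reads of miR-99a and miR-100 can therefore have been shared between them. The study's local alignment left out mismatches toward the end of a read, and equally good hits were weighted. miR-99b stood outside that distance over the whole strand, but its differences from miR-99a and from miR-100 include positions 1 and 21. Those of miR-99b* from miR-99a* include position 21, and those of miR-125a-3p from miR-125b-1-3p and from miR-125b-2-3p include position 22. Gapped matches, as between miR-125a-5p and miR-125b-5p, were not searched for. Whether reads were shared within these pairs was not tested.

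The hairpins were placed by exact matches on NCBIM37, all on the plus strand. miR-99a lay at chr16:77599185-77599206, within the span of the gene Gm11146 on the opposite strand but outside its exons. let-7c followed 732 bases after it and the miR-125b-2 copy of miR-125b-5p 47339 bases after it, at chr16:77646524-77646545. The second cluster was the tightest. miR-99b lay at chr17:17967158-17967179 and miR-99b* at chr17:17967196-17967217, followed by let-7e 172 bases and miR-125a-5p 623 bases after the start of miR-99b. miR-125a-5p, at chr17:17967781-17967804, fell in an exon of Ncrna00085 on the same strand. In the third cluster miR-100 lay at chr9:41339520-41339541 within the lincRNA gene D230004N17Rik but outside its exons, let-7a followed after 5295 bases, and the miR-125b-1 copy of miR-125b-5p followed after 50503 bases at chr9:41390023-41390044. miR-125b-5p thus matched 2 places exactly, and its reads cannot be divided between the chromosome 16 and chromosome 9 clusters. The 3p arms of miR-125b-1 and miR-125b-2 differ and can be.

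The level of the 11 miRNAs spanned more than 3 orders of magnitude. miR-125b-5p was the most abundant, with 12661, 20337 and 18989 RPM in wild type and 22883, 19148 and 17730 RPM in Adar2-/-. It held between the 9th and the 17th place among all miRNAs of a library. Its lowest library was wild-type replicate 1 and its highest Adar2-/- replicate 1, and the genotypes overlapped, with means of 17329 ± 4098 RPM (SD, n = 3) in wild type and 19920 ± 2662 RPM (SD, n = 3) in Adar2-/-.

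miR-99b came next. It had 10780, 6726 and 9174 RPM in wild type and 4430, 6733 and 4963 RPM in Adar2-/-, which placed it between the 19th and the 31st miRNA of a library. The highest Adar2-/- library lay just above the lowest wild-type library, both being replicate 2, and otherwise each Adar2-/- library was lower than each wild-type library. The means were 8893 ± 2041 RPM (SD, n = 3) in wild type and 5376 ± 1205 RPM (SD, n = 3) in Adar2-/-, a ratio of Adar2-/- to wild type of 0.604.

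miR-125a-5p had 3010, 6256 and 4854 RPM in wild type and 5414, 4363 and 4793 RPM in Adar2-/-. The Adar2-/- values lay inside the wild-type range. Wild-type replicate 1 was the lowest library for it, as it was for miR-125b-5p. The levels of miR-99b and miR-125a-5p overlapped, and miR-99b was the higher in 5 of 6 libraries.

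miR-100 had 1390, 1558 and 1866 RPM in wild type and 1384, 1920 and 1685 RPM in Adar2-/-, and the genotypes overlapped. miR-99a had 1138, 1040 and 1122 RPM in wild type and 1035, 1381 and 1603 RPM in Adar2-/-. Its 2 highest libraries were Adar2-/- replicates 2 and 3 and its lowest was Adar2-/- replicate 1, so that the wild-type values lay inside the Adar2-/- range. miR-100 exceeded miR-99a in 6 of 6 libraries, although their ranges overlapped.

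Among the strands of the opposite arms, miR-99b* was the most abundant on average, with 217, 191 and 248 RPM in wild type and 130, 167 and 171 RPM in Adar2-/-. Every Adar2-/- library was below every wild-type library. The means were 219 ± 28.3 RPM (SD, n = 3) and 156 ± 22.6 RPM (SD, n = 3), a ratio of 0.714. miR-99b* was 1 of the 10 tested members with such a separation. Over all 399 miRNAs that reached 100 reads in each library, 12 (3.01%) had every Adar2-/- library below every wild-type library.

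miR-125b-2-3p had 259, 91.4 and 106 RPM in wild type and 123, 115 and 91.0 RPM in Adar2-/-. Wild-type replicate 1 was more than 2 times as high as any other library, and the remaining 5 libraries overlapped. miR-125b-1-3p ranged from 57.9 to 88.8 RPM in wild type and from 47.7 to 81.7 RPM in Adar2-/-. miR-125a-3p had 56.0, 24.5 and 42.9 RPM in wild type and 41.1, 23.7 and 24.1 RPM in Adar2-/-. The 3 miR-125 strands of the 3p arm were all highest in wild-type replicate 1, the library in which both miR-125 guide strands were lowest. miR-99a* ranged from 14.4 to 25.0 RPM in wild type and from 13.3 to 27.8 RPM in Adar2-/-. miR-100* was close to the limit of these libraries, with 65, 27 and 26 reads in wild type and 15, 72 and 92 reads in Adar2-/-. Its level, 5.22, 1.19 and 1.11 RPM against 0.804, 3.05 and 3.84 RPM, was highest in the shallowest library.

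**Figure D1:**
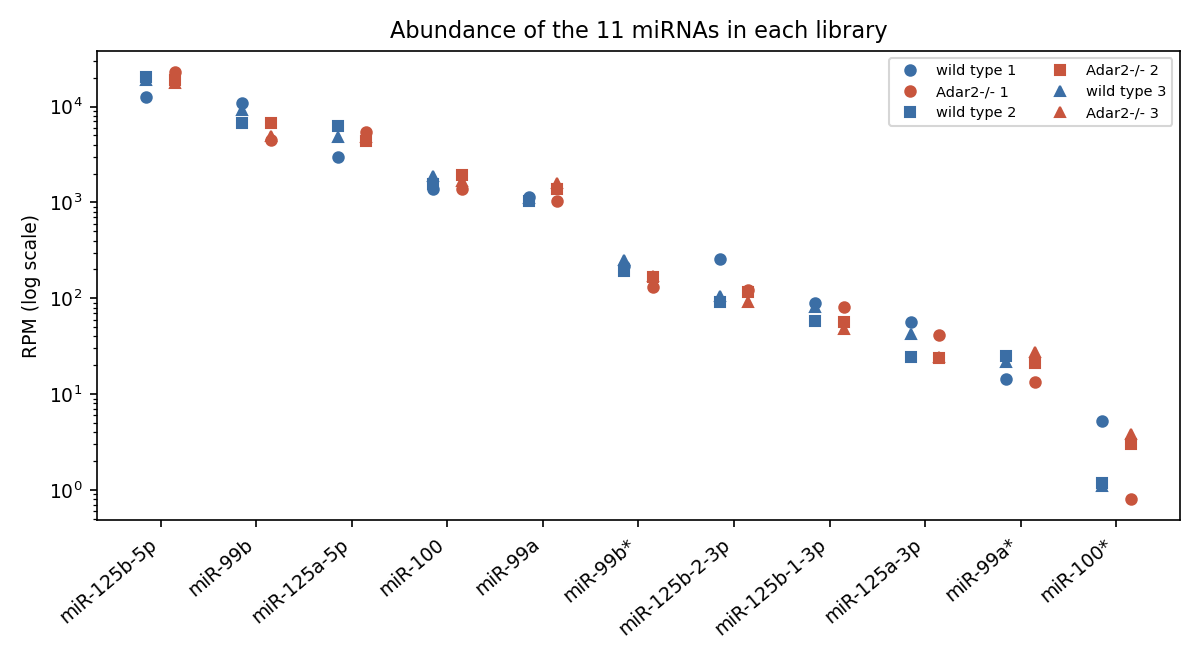
Level of the 11 miRNAs in each library, in RPM on a log axis, with a point per library (blue, wild type; red, Adar2-/-; the symbol gives the replicate). The genotypes are apart for miR-99b*, touch at replicate 2 for miR-99b and overlap for the other 9.

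The first comparison asked which of these miRNAs differed in level between the genotypes. None passed the test across all miRNAs. miR-99b had the largest difference of the members, with a log2 fold change of -0.73 (SE 0.33, Adar2-/- against wild type), followed by its passenger strand miR-99b* at -0.49 (SE 0.30). The edgeR quasi-likelihood test gave adjusted p = 0.988 for both, with unadjusted p = 0.0528 and 0.132. Of the 10 members tested, 0 were called at an adjusted p of 0.05, against 0 of 399 miRNAs (0%). At an unadjusted p of 0.05 the counts were 0 of 10 and 13 of 399 (3.26%). DESeq2 gave unadjusted p = 0.00577 for miR-99b and 0.0191 for miR-99b*, and adjusted p = 0.303 and 0.400. These were 2 of the 10 members under 0.05 unadjusted by DESeq2, against 40 of the 398 miRNAs to which it gave a p (10.1%). The study named miR-99b and miR-99b* from these same libraries, so their direction is not independent evidence.

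Among the other guide strands, the edgeR log2 fold change was 0.28 (SE 0.31) for miR-99a and 0.20 (SE 0.32) for miR-125b-5p. For miR-100 and miR-125a-5p it was 0.05 (SE 0.31) and 0.05 (SE 0.35), and with DESeq2, which changes both the model and the scaling, both values had the opposite sign. miR-100 also changed sign in edgeR with totals that leave out the 5 most abundant miRNAs. Among the other strands it was -0.47 (SE 0.40) for miR-125a-3p, -0.47 (SE 0.42) for miR-125b-2-3p, -0.29 (SE 0.34) for miR-125b-1-3p and 0.03 (SE 0.38) for miR-99a*, the last changing sign with each of the other scalings. The members divided into 5 positive and 5 negative values with a median log2 fold change of -0.13. Over all 399 miRNAs there were 201 positive and 198 negative values with a median of 0.0023. Without wild-type replicate 1 the value for miR-125b-2-3p was 0.16, so its sign rested on that library.

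Members were also counted by direction and size alone, asking for 100 reads in each library, 1 direction at replicate numbers 1, 2 and 3, and mean RPM differing by 1.3-fold or more. The study's lists rest on similar limits but add a threshold on p, which was not applied here, so the counts are not those of the study. By it 2 members, miR-99b* and miR-125a-3p, were lower in Adar2-/- and 0 were higher. Over all miRNAs 17 of 399 (4.26%) were lower by the same rule. The ratios of Adar2-/- to wild type at replicate numbers 1, 2 and 3 were 0.599, 0.875 and 0.689 for miR-99b*, and 0.735, 0.964 and 0.563 for miR-125a-3p. For miR-99b they were 0.411, 1.00 and 0.541, so that replicate number 2 alone kept it from this count, although the study lists it among its lower miRNAs. With TMM scaling, or with library totals that leave out the 5 most abundant miRNAs, miR-99b was included and the count was 3, beside 27 and 32 of 399 miRNAs. At 1.5-fold it was 0, beside 8 of 399. Without replicate 2 it was 5, beside 82 of 399, and without replicate 3 it was 1, beside 21 of 399. Without replicate 1, 2 members were lower, beside 35 of 399, and 1 (miR-99a) was higher, beside 141 of 399.

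Reads were then summed over guide strands with the same seed. The miR-99/miR-100 seed family had 13308, 9324 and 12161 RPM in wild type and 6850, 10034 and 8251 RPM in Adar2-/-. The lowest wild-type library lay below the highest Adar2-/- library. The means were 11598 ± 2051 RPM (SD, n = 3) and 8378 ± 1596 RPM (SD, n = 3), a log2 difference of -0.47. The miR-125 seed family had 15671, 26593 and 23843 RPM in wild type and 28297, 23511 and 22523 RPM in Adar2-/-, with a log2 difference of 0.20. Here the 2 genotypes overlapped widely, and without wild-type replicate 1 the difference was -0.03. A two-sided exact permutation test gave p = 0.2 for the miR-99/miR-100 family and p = 0.6 for the miR-125 family (adjusted p = 0.4 and 0.6 over the 2 families). With 3 libraries against 3 this test cannot give less than 0.1.

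The makeup of the miR-99/miR-100 seed family did not overlap between the genotypes. Most of its reads are miR-99b, which the study named from these same libraries. How many other families have a makeup that separates the genotypes was not counted. miR-99b made up 81.0%, 72.1% and 75.4% of the family's reads in wild type and 64.7%, 67.1% and 60.2% in Adar2-/-. No Adar2-/- library reached the lowest wild-type library, and the means were 76.2 ± 4.48% (SD, n = 3) and 64.0 ± 3.52% (SD, n = 3), with exact permutation p = 0.1, the smallest possible. The shares of miR-99a, 9.64 ± 1.35% against 16.1 ± 2.96% (SD, n = 3), and of miR-100, 14.2 ± 3.29% against 19.9 ± 0.687% (SD, n = 3), were the higher in Adar2-/-. The 3 shares add to the whole and are not separate results. In the miR-125 family, miR-125b-5p made up 79.0 ± 2.24% in wild type and 80.3 ± 1.44% in Adar2-/- (SD, n = 3), with exact permutation p = 0.5. The 95% Wilson intervals of these shares in single libraries were within 0.263 percentage points of the value, covering counting error only.

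**Figure D2:**
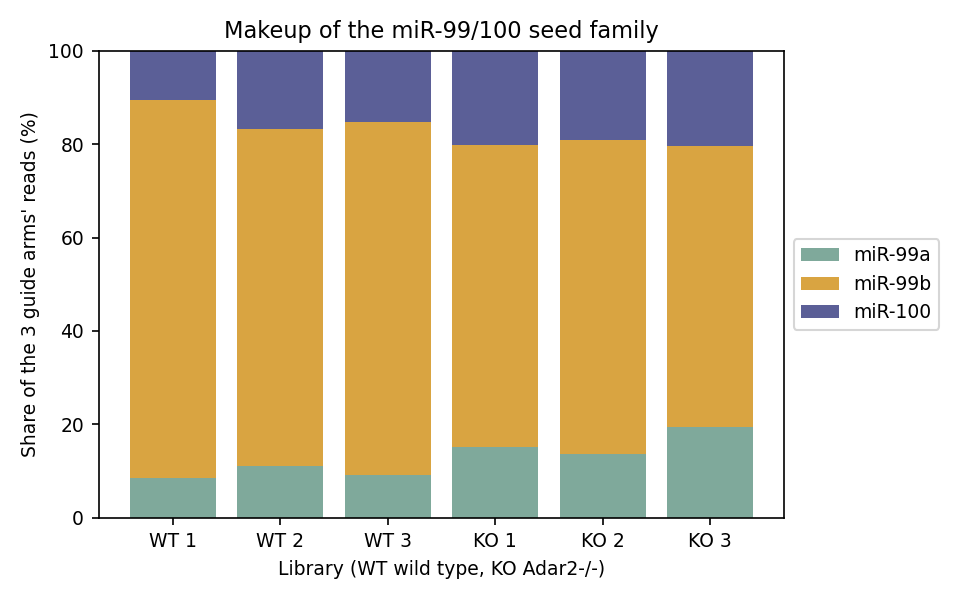
Share of the reads on miR-99a, miR-99b and miR-100 that each of these guide strands took in each library, in percent (WT, wild type; KO, Adar2-/-). The miR-99b segment runs from 72.1% to 81.0% in the wild-type libraries and from 60.2% to 67.1% in the Adar2-/- libraries.

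The same reads were also written as ratios between paralogs within a library. Like the shares, these ratios do not depend on the library total, and they restate the shares rather than add a separate result. The log2 ratio of miR-99b to miR-99a was 3.24, 2.69 and 3.03 in wild type and 2.10, 2.29 and 1.63 in Adar2-/-. It was lower in each Adar2-/- library than in each wild-type library, by 0.99 on average. The log2 ratio of miR-99b to miR-100 was 2.96, 2.11 and 2.30 in wild type and 1.68, 1.81 and 1.56 in Adar2-/-, again without overlap, with a difference of -0.77. Both gave exact permutation p = 0.1 (adjusted p = 0.2 over 4 ratios). The ratio of miR-99a to miR-100 differed by 0.21 (p = 0.4, exact) and overlapped, and without replicate 3 it differed by -0.01. The ratio of miR-125a-5p to miR-125b-5p differed by -0.12 (p = 0.5, exact) and overlapped, and without replicate 2 it differed by 0.04.

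The second comparison was between the 3 clusters, each taken as the reads on strands that come from it alone. The miR-99b/miR-125a cluster (miR-99b, miR-99b*, miR-125a-5p and miR-125a-3p) had 14064, 13199 and 14319 RPM in wild type and 10015, 11287 and 9952 RPM in Adar2-/-. Every Adar2-/- library was below every wild-type library. Relative to the mean, the libraries of a genotype were closer to each other for this sum than for miR-99b or miR-125a-5p alone, with 13860 ± 587 RPM (SD, n = 3) in wild type and 10418 ± 753 RPM (SD, n = 3) in Adar2-/-. The ratio of the means was 0.752 and the log2 difference -0.41, and it lay between -0.51 and -0.36 over all alternatives tried. The exact permutation test gave its smallest p, 0.1 (adjusted p = 0.3 over the 3 clusters). The total was not lower through all its strands. The means in wild type and Adar2-/- were 8893 and 5376 RPM for miR-99b, but 4707 and 4857 RPM for miR-125a-5p. The lower total was thus mainly that of miR-99b. let-7e of the same cluster is not in the sum.

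The miR-99a/miR-125b-2 cluster (miR-99a, miR-99a* and miR-125b-2-3p) had 1410, 1156 and 1249 RPM in wild type and 1172, 1518 and 1722 RPM in Adar2-/-, a log2 difference of 0.20 with overlap (p = 0.3, exact). It was 0.073 without Adar2-/- replicate 3, 0.13 without wild-type replicate 2 and 0.35 without Adar2-/- replicate 1. The miR-100/miR-125b-1 cluster (miR-100, miR-100* and miR-125b-1-3p) had 1484, 1617 and 1948 RPM in wild type and 1467, 1980 and 1736 RPM in Adar2-/-. Its log2 difference was 0.04 with overlap (p = 0.8, exact), and -0.03 with totals that leave out the 5 most abundant miRNAs. The miR-125b-5p reads, which both clusters make, stand in neither sum.

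The difference between clusters was tested as a ratio within each library. The log2 ratio of the miR-99b/miR-125a cluster to the miR-99a/miR-125b-2 cluster was 3.32, 3.51 and 3.52 in wild type and 3.10, 2.89 and 2.53 in Adar2-/-. That to the miR-100/miR-125b-1 cluster was 3.24, 3.03 and 2.88 in wild type and 2.77, 2.51 and 2.52 in Adar2-/-. Neither ratio overlapped between the genotypes, and the differences were -0.61 and -0.45. Both had exact permutation p = 0.1 (adjusted p = 0.15 over 3 ratios), so neither passed a threshold of 0.05, which 3 libraries against 3 cannot reach. Both ratios, like the family shares, the separated paralog ratios and the cluster total, hold miR-99b, which the study named from these same libraries. The share of sums or ratios of other miRNAs that separate the genotypes was not counted. The ratio of the miR-99a/miR-125b-2 cluster to the miR-100/miR-125b-1 cluster differed by 0.16 with overlap (p = 0.4, exact), and by -0.07 without replicate 3.

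**Figure D3:**
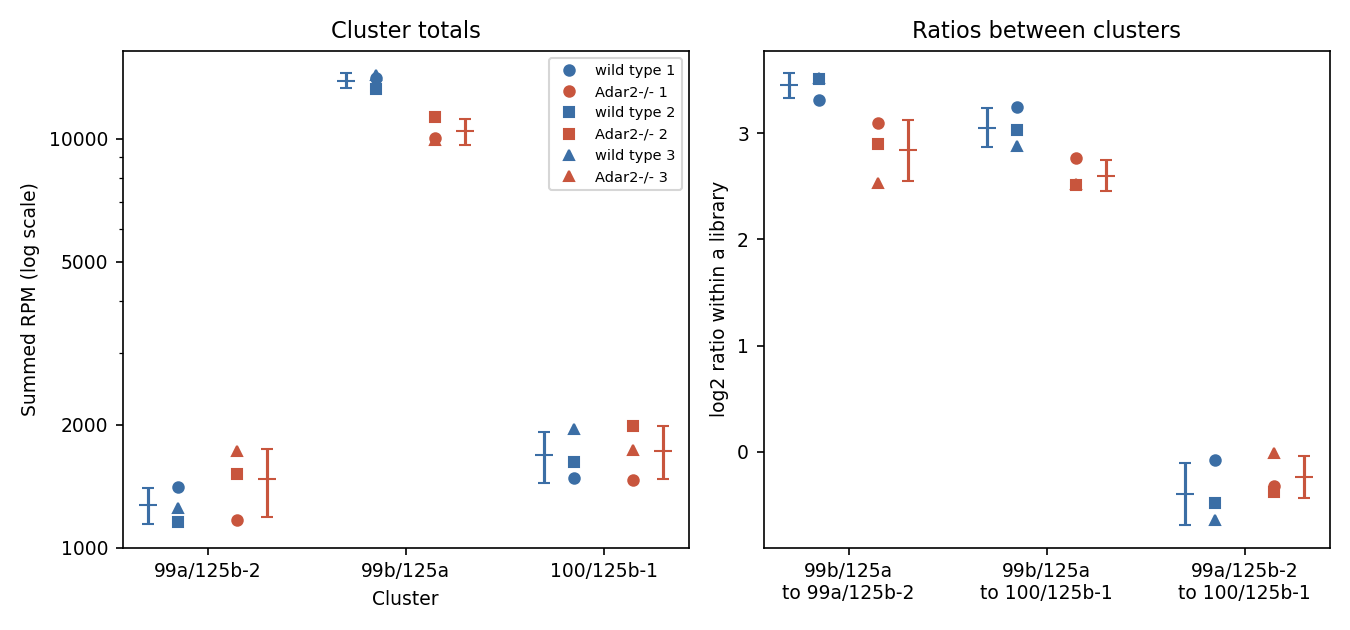
Reads of the 3 clusters in each library: summed level in RPM on a log axis, and log2 ratios between cluster totals (blue, wild type; red, Adar2-/-; points are libraries, and bars give the mean ± SD, n = 3). The miR-99b/miR-125a total lies between 13199 and 14319 RPM in wild type and between 9952 and 11287 RPM in Adar2-/-, while the other totals overlap.

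The let-7 hairpins of the same clusters were read beside them. Of the 6 let-7 strands, 3 reached 100 reads in each library (let-7a, let-7c and let-7e, with seeds unrelated to those above), and 0 of the 3 were called. Their log2 fold changes were 0.47, 0.53 and 0.90. let-7e, which lies between miR-99b and miR-125a, had 204, 95.9 and 198 RPM in wild type and 111, 332 and 485 RPM in Adar2-/-. Adar2-/- replicates 2 and 3 were above all wild-type libraries and replicate 1 was not. The log2 ratio of let-7e to miR-99b was -5.72, -6.13 and -5.53 in wild type and -5.32, -4.34 and -3.35 in Adar2-/-, without overlap. It was 1 of 6 ratios between neighbours of a cluster chosen after the values had been seen, with exact permutation p = 0.1 and adjusted p = 0.6 over the 6. The other 5 overlapped, with exact permutation p between 0.2 (miR-99b to miR-125a-5p, a log2 difference of -0.83) and 0.9 (miR-99a to miR-125b-5p, 0.04). let-7a and let-7c have an additional exact match each outside these clusters, so their reads are not particular to them.

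The third comparison was between the arms of a hairpin, with miR-99b* as the reason for asking, since the study lists it as edited within its seed. The reads counted here do not separate edited from unedited strands. miR-99b* made up 1.97%, 2.77% and 2.63% of the reads of its hairpin in wild type and 2.85%, 2.43% and 3.33% in Adar2-/-. The genotypes overlapped, with means of 2.46 ± 0.423% and 2.87 ± 0.450% (SD, n = 3). There were between 29.1 and 49.6 reads of miR-99b for each read of miR-99b*, with a median of 36.1. Both strands were lower in Adar2-/- on average, and their log2 ratio differed by 0.23 (SE 0.38, 95% interval -0.61 to 1.08, adjusted p = 0.811 by limma). The difference was 0.079 without wild-type replicate 1, 0.12 without Adar2-/- replicate 3 and 0.35 without Adar2-/- replicate 2.

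No other arm ratio passed the same test. That of miR-99a* to miR-99a differed by -0.26 (SE 0.41, limma adjusted p = 0.807). The 3p to 5p ratios of miR-125a, miR-125b-1 and miR-125b-2 differed by -0.54 (SE 0.55), -0.53 (SE 0.44) and -0.54 (SE 0.56), each with limma adjusted p = 0.750. For both miR-125b hairpins the 5p reads were the shared ones. Of the 5 member ratios 0 were called, against 0 of 124 hairpins (0%), with a median difference over all hairpins of -0.28 and 6 hairpins at an unadjusted p under 0.05. The values of miR-125a and miR-125b-2 rested on wild-type replicate 1, where miR-125b-2-3p made up 2.00% of the reads of both arms and 0.447% to 0.599% in the other libraries. miR-125a-3p likewise made up 1.83% there and 0.391% to 0.876% elsewhere. Without that library the differences were 0.0083 for miR-125a and 0.14 for miR-125b-2, while that of miR-125b-1 was smaller at -0.19 and kept its sign. Wild-type replicate 1 was also the library with the fewest reads and with the highest pituitary set, and the part of either in these values was not tested. miR-100* was outside the fit, with 266 to 1721 reads of miR-100 for each of its reads.

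**Figure D4:**
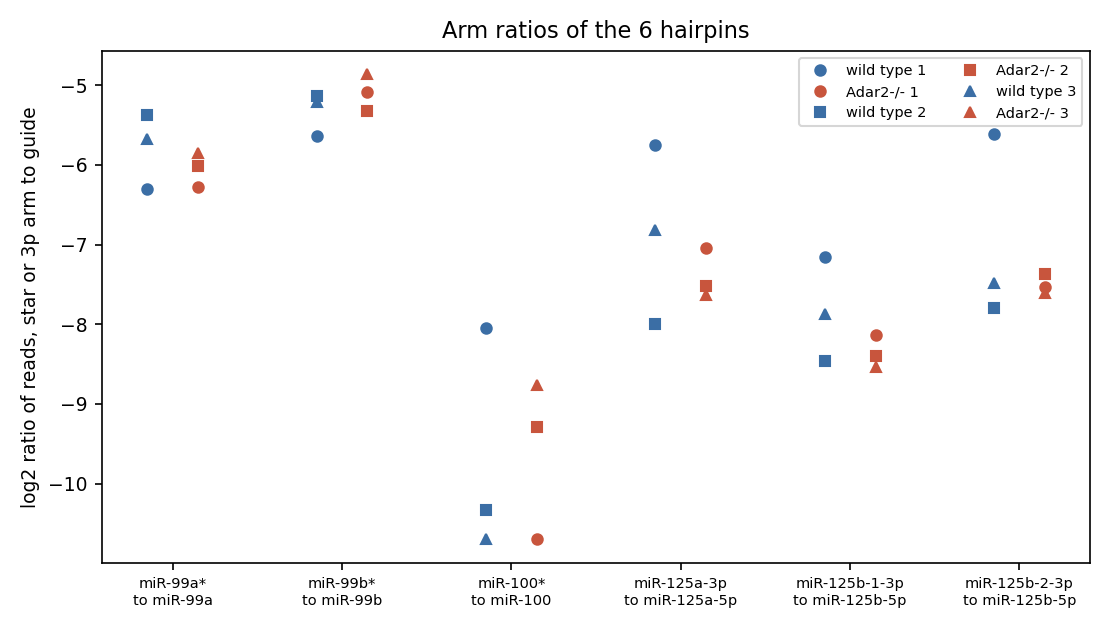
Log2 ratio of the opposite-arm strand to the guide strand of each hairpin in each library (blue, wild type; red, Adar2-/-; points are libraries). The miR-99b ratios overlap between the genotypes, and wild-type replicate 1 lies above the other libraries for the miR-125 hairpins.

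Lastly, the profiles of the members over the 6 libraries were compared, each as log2 RPM minus its own mean. The measure of likeness was the mean absolute difference between 2 such profiles, which is a description of 6 libraries that share their totals. Among the 10 pairs of guide strands the most alike were miR-125a-5p and miR-125b-5p, at 0.122, which share a seed and lie on different chromosomes. Whether reads were shared between miR-125a-5p and miR-125b-5p was not tested. miR-99a and miR-100 followed at 0.169, a pair whose reads can be shared. Over all 79401 pairs of tested miRNAs the median was 0.459. miR-99b and miR-125a-5p, only 623 bases apart, were the least alike of the guide pairs at 0.587, and at 0.392 the 9th of 10 without wild-type replicate 1. miR-99b was closer to its own passenger strand miR-99b*, at 0.181. Their profiles were both above their means in wild-type replicates 1 and 3 and both below in every Adar2-/- library, while miR-125a-5p was 0.63 below its mean in wild-type replicate 1 and 0.42 above it in wild-type replicate 2. For miR-99b the replicate 2 values were close to its mean in both genotypes, at -0.015 in wild type and -0.013 in Adar2-/-.

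Outside the families, the miRNAs whose profiles were most like the summed miR-99/miR-100 seed family were miR-1981*, at 0.0626, miR-874*, at 0.0864, and miR-1843-5p, at 0.0984. For the summed miR-125 seed family they were miR-488, at 0.106, miR-18a, at 0.109, and miR-19b, at 0.114. The median over the 389 tested miRNAs outside the families was 0.395 and 0.429 for the 2 sums.

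**Figure D5:**
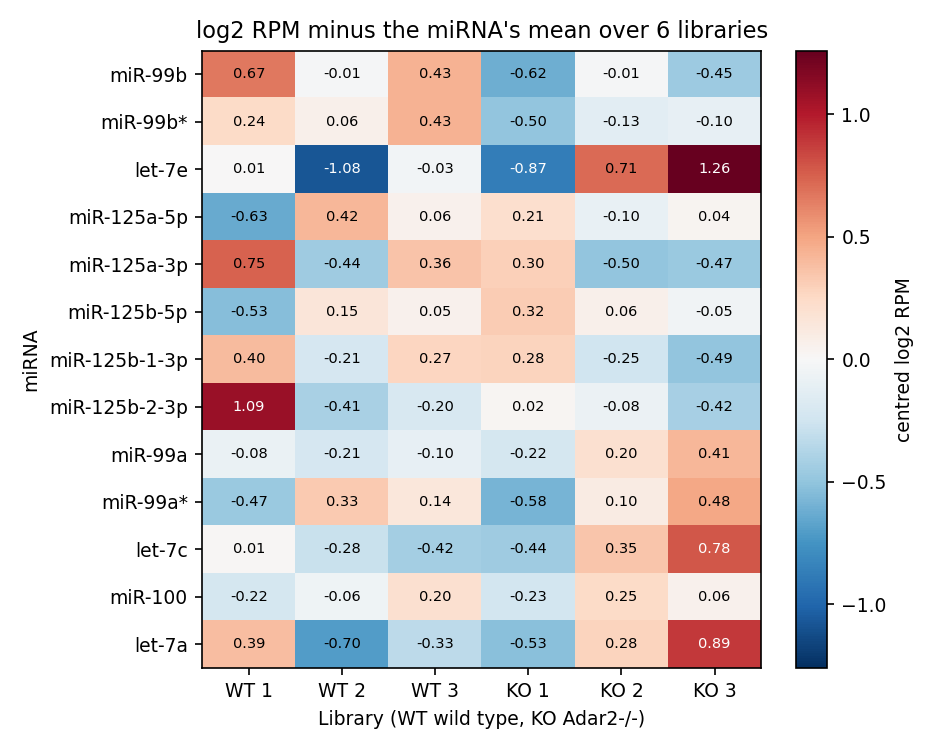
Profiles of the members and of 3 let-7 miRNAs over the 6 libraries, each value being log2 RPM minus the mean of that miRNA over the libraries (WT, wild type; KO, Adar2-/-). miR-99b and miR-99b* are below their means in all 3 Adar2-/- libraries, and both miR-125 guide strands have their lowest value in wild-type replicate 1. miR-99b is close to its mean in replicate 2 of both genotypes, at -0.015 in wild type and -0.013 in Adar2-/-.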

How the data were processed

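Per the labels and the study's methods, RNA of 19 to 25 nucleotides was cut from gels and amplified by 15 PCR cycles. The authors trimmed adapters with Cutadapt and mapped reads to mature miRNAs of miRBase with NextGenMap at 90% identity, leaving out hits on the reverse strand. They deposited raw read counts per mature miRNA in 3 tables, each holding 1 wild-type and 1 Adar2-/- library. Blank lines, 12 in all, were dropped.

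Counts were tested with edgeR 4.0.16 (quasi-likelihood, library size the total mapped miRNA reads, no scaling factors) over 399 miRNAs that reached 100 reads in each library, with Benjamini-Hochberg adjustment at 0.05. Arm ratios were tested with limma 3.58.1 on log2((arm + 0.5)/(guide + 0.5)) over 124 hairpins with both arms at 100 reads. Single values had two-sided exact permutation tests (coded with numpy 2.4.6). DESeq2 1.42.0, TMM, totals without the 5 most abundant miRNAs, other minimums, a block and leaving out libraries were tried. The model fits were tested on simulated data. The study says only that replicates are biological. The column headers of the counts hold numbers whose meaning is not stated, in another form for replicate 1 than for replicates 2 and 3. The p-values of the fits set a difference against the spread between these libraries. Those of the exact tests set it against other labelings of the same libraries. PCR reads are not independent molecules.

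Members and lists were chosen with earlier results of these data known. Every member is named, with the let-7 cluster partners and the 3 non-members nearest to each seed family. The other arms of miR-99a and the like are written with a star as in the tables. Positions are exact matches to NCBIM37 with GENCODE vM1 genes.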

Additional observations from a re-analysis of the deposited data

How the results depend on the processing

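Of 16 alternatives, 16 called 0 members by edgeR or DESeq2, and the member log2 fold changes kept their sign in 142 of 160 values. miR-99b stayed between -1.09 and -0.44 and miR-99b* between -0.63 and -0.37. Deviations of same-numbered libraries from their genotype means correlated at -0.0010, -0.08 and -0.01, so no pairing by replicate number was seen. With 3 libraries per genotype this cannot show whether same-numbered libraries shared a litter, preparation or run. With the replicate number as a block, 0 miRNAs were called and the miR-99b/miR-125a total differed by -0.41 (p = 0.25, the smallest an exact test of 3 pairs can give).

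Signs close to 0 changed with the scaling. The miR-100/miR-125b-1 total was -0.029 with totals without the 5 most abundant miRNAs. miR-100 was -0.013 with those totals and -0.011 with DESeq2, miR-125a-5p was -0.0090 with DESeq2, and miR-99a* was -0.033 with TMM, -0.086 with those totals and -0.087 with DESeq2. DESeq2 called 1 miRNA over all tested, not a member. At 1.5-fold 0 members met the limits on direction and size.

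Leaving out libraries gave these ranges: the miR-125 family -0.13 to 0.39, negative without wild-type replicate 1 or replicate number 1; the miR-100/miR-125b-1 total -0.091 to 0.15; the ratio of the miR-99a/miR-125b-2 to the miR-100/miR-125b-1 cluster -0.075 to 0.36; miR-99a to miR-100 -0.011 to 0.39; and miR-125a-5p to miR-125b-5p -0.22 to 0.037. Those of single miRNAs were -0.085 to 0.17 for miR-100, -0.28 to 0.38 for miR-125a-5p, -0.76 to 0.16 for miR-125b-2-3p, -0.093 to 0.36 for miR-125b-5p and -0.24 to 0.27 for miR-99a*. Arm ratios ranged from -1.11 to 0.0083 for miR-125a and from -1.02 to 0.15 for miR-125b-2, where leaving out wild-type replicate 1 changed the sign (0.14). Those that kept their sign ranged from 0.078 to 0.45 for miR-99b, from -0.52 to -0.058 for miR-99a and from -0.84 to -0.19 for miR-125b-1. Likewise the miR-99/miR-100 family ranged from -0.76 to -0.23, the miR-99a/miR-125b-2 total from 0.063 to 0.43, miR-99a from 0.14 to 0.47, miR-125a-3p from -0.78 to -0.19 and miR-125b-1-3p from -0.54 to -0.085. Members lower by direction and size numbered 1 to 5, beside 21 to 82 of 399 miRNAs, and members higher 0 to 1, beside 25 to 141. Over all miRNAs 0 to 18 were called and over all hairpins 0 to 28, the upper values without replicate 1 and with 0 members among them. The median log2 fold change over all miRNAs was then 0.17. The cause was not tested.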
